A study of Mus musculus with 40 samples.

Results

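The trachea of mouse embryos at E13.5 (E for embryonic day) was compared with the trachea at E10.5. The comparison used the 2 libraries labelled trachea at E13.5 and the 2 labelled trachea at E10.5, chosen by organ and age in the sample labels, which are 4 of the 40 libraries of the series. The series covers the larynx (the primitive laryngopharynx at its earliest ages), the esophagus and the trachea of wild-type FVB/N mice from E10.5 onwards, and RNA was sequenced from bulk tissue. Each of these 4 libraries came from tissue pooled from 10 animals, cut as a small piece just behind the larynx on its ventral side. The embryos of both ages were untreated and carried no engineered allele, and their sex is not stated. A piece this small can hold tissue that lies against the trachea. The study calls the 2 libraries of an age biological replicates. Because each is a pool, the spread between them is a spread between pools and not between embryos.

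The trachea begins as a bud on the ventral wall of the foregut. Its lining comes from endoderm that expresses the homeobox gene Nkx2-1, while its cartilage rings, smooth muscle and connective tissue come from the splanchnic mesoderm around it. Over the ages compared here the tube separates from the esophagus, the surrounding mesenchyme lays down matrix, and blood vessels and macrophages populate the wall. Hedgehog, Wnt, BMP, FGF and retinoic acid signals pass between the lining and the mesenchyme.

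The 2 E13.5 libraries held 23210925 and 12883607 estimated counts, and the 2 E10.5 libraries held 19235799 and 15850331. Across 35650 genes the log2 levels correlated at 0.970 between the E13.5 libraries and at 0.983 between the E10.5 libraries, against 0.940 to 0.955 between ages, as a description across genes. Xist, the RNA of the inactive X chromosome, was at 19 and 137 CPM (counts scaled to a common library total) at E13.5 and at 320 and 1480 CPM at E10.5, and the Y-linked gene Ddx3y was at 73.8 and 13.3 CPM at E13.5 and at 74.1 and 25.4 CPM at E10.5. The part of the mix of sexes in the results was not tested. E13.5 library 1 held thymus and liver transcripts that E13.5 library 2 nearly lacked: Foxn1, the thymic epithelial regulator, was at 8.53 and 0 CPM, and Alb, serum albumin, at 682 and 13.6 CPM. E10.5 library 1 likewise had more liver RNA than E10.5 library 2, with Afp, fetal albumin, at 838 and 20.1 CPM. The libraries numbered 2 held more heart muscle RNA, summed at 5580 and 8650 CPM at E13.5 and at 3970 and 7090 CPM at E10.5. Sftpc, a marker of distal lung, was at 2.28 and 7.14 CPM at E13.5. Hox genes summed to 272 and 66.3 CPM in E10.5 libraries 1 and 2. List counts that moved by over 1.5 times without both libraries numbered 1 are also given without them.

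The labelled tissue was checked against its defining markers. Nkx2-1 was low in all 4 libraries, at 1.55 and 2.33 CPM at E13.5 and at 0.728 and 0.568 CPM at E10.5. Tbx4, a regulator of respiratory mesenchyme, was at 18.6 and 35.0 CPM at E13.5 and at 9.2 and 6.88 CPM at E10.5. Epcam, an adhesion protein of epithelia, was at 67.9 and 56.1 CPM at E13.5 and at 18.2 and 26.2 CPM at E10.5. Matn1, a matrix protein of mature cartilage, was at 0.215 and 0 CPM at E13.5 and at 0 and 0.126 CPM at E10.5, and Scgb1a1, the marker of club cells, had no count in any of the 4. Transcripts of heart muscle were abundant at both ages. Myh6, the atrial myosin heavy chain, was at 1480 and 2060 CPM at E13.5 and at 532 and 959 CPM at E10.5.

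Of the 35650 genes tested, 4714 (13.2%) differed between the ages at an adjusted p under 0.05 in edgeR's quasi-likelihood test with Benjamini-Hochberg adjustment, 2389 (6.7%) higher at E13.5 and 2325 (6.52%) lower. The median change of the called genes was a log2 fold change of 1.48 among the higher and -1.52 among the lower, and 834 and 928 of them changed by more than 2 on the log2 scale. The median over all genes tested was 0.00. Counts of called list members given below stand beside these shares of 6.7% higher and 6.52% lower. Counts of members whose ages did not overlap stand beside 48.8% of all genes tested, in either direction. Most of the higher genes, 2337, and fewer of the lower genes, 1494, were protein-coding. The count was smaller with any library left out: 2808 without E13.5 library 1, 2482 without E13.5 library 2, 2573 without E10.5 library 1, 2165 without E10.5 library 2 and 1482 without both libraries numbered 1. In these bulk samples, fewer cells of a type and less RNA per cell cannot be told apart.

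**Figure D1:**
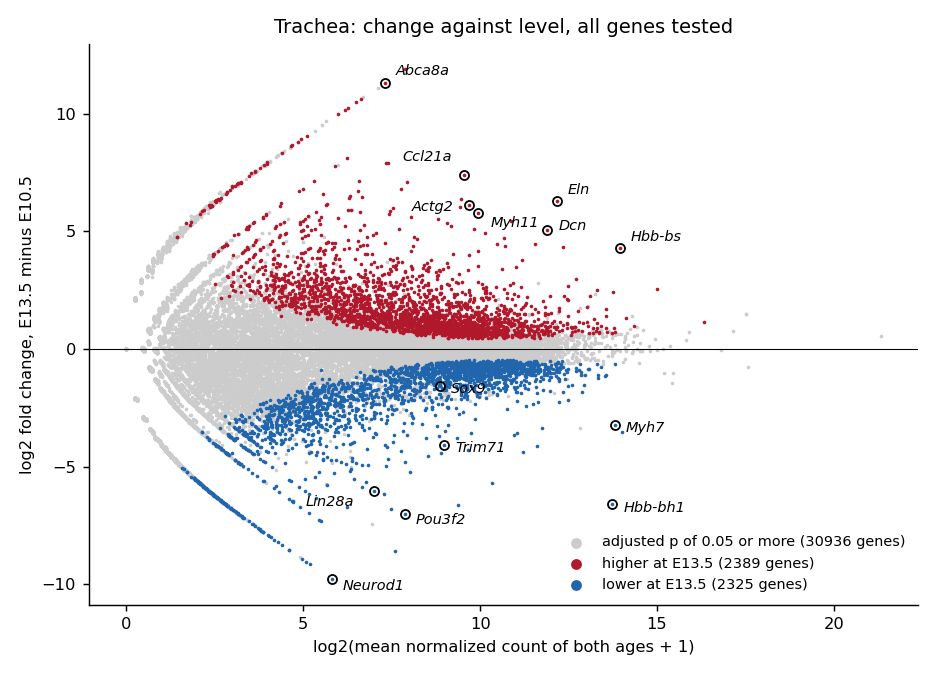
Log2 fold change of the trachea, E13.5 minus E10.5 (vertical axis), against the log2 of the mean normalized count of both ages plus 1 (horizontal axis), 1 point per gene tested, with some named genes circled. Red and blue points mark the 2389 genes higher and the 2325 genes lower at an adjusted p under 0.05, and the called genes lie on both sides of 0.

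The trachea at E11.5 was measured in 2 further libraries. For 2228 of the 2389 higher genes and 2169 of the 2325 lower genes the E11.5 mean was between the E10.5 and E13.5 means. These genes were selected for a difference between those 2 ages, which favours an E11.5 mean between them, so the counts are a description. At E11.5 the higher genes had made a median of 51.4% of their log2 change and the lower genes a median of 33.2%. Tested as separate steps, 626 genes (1.76%) differed between E11.5 and E10.5 and 537 (1.51%) between E13.5 and E11.5.

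Connective tissue matrix rose as a block. Of 32 genes of fibrous matrix and elastic fibers, 29 were higher at E13.5 and 0 lower, with a median log2 fold change of 2.61, and in 30 of them both E13.5 libraries lay above both E10.5 libraries (48.8% of all genes tested had ages that did not overlap, in either direction). Col3a1, a fibrillar collagen of soft tissue, had 63869 and 47622 normalized counts at E13.5 and 9865 and 9091 at E10.5. Both E13.5 libraries were well above both E10.5 libraries, and the log2 fold change was 2.56 ± 0.30 (SE, adjusted p = 4.79e-06, edgeR's quasi-likelihood test). Eln, the elastin of elastic fibers, had 13230 and 5003 normalized counts at E13.5 and 105.1 and 125.9 at E10.5. The ages did not overlap although E13.5 library 1 held more Eln than library 2, and the log2 fold change was 6.30 ± 0.71 (SE, adjusted p = 2.44e-06, edgeR). Dcn, decorin, a small proteoglycan that binds collagen fibrils, had 8041 and 6813 normalized counts at E13.5 and 289 and 162 at E10.5, a log2 fold change of 5.04 ± 0.35 (SE, adjusted p = 2.14e-09, edgeR). Thbs2, a matrix glycoprotein of the thrombospondin family, rose by 5.43 ± 0.32 on the log2 scale and Fbln5, which helps assemble elastic fibers, by 4.70 ± 0.42. With each library left out in turn the count of higher matrix genes stayed between 26 and 29, and it was 24 without both libraries numbered 1.

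The 10 largest rises among protein-coding genes included Abca8a, Dpt and Ccl11, picked from the 10 after their values were seen, and also Ltf, Cd3g and Camp, which are described with the blood cell genes. Abca8a, a lipid transporter, had 452 and 183 normalized counts at E13.5 and 0 in both E10.5 libraries, at least 126-fold higher with a floor of 3 counts per E10.5 library. Dpt, dermatopontin, a matrix protein, had 173 and 113 normalized counts at E13.5 and 0 in both at E10.5, at least 56.3-fold higher. Ccl11, a chemokine that attracts eosinophils, had 69.1 and 64.2 at E13.5 and 0 in both at E10.5, at least 26.3-fold higher. All 3 were well above the floor in both E13.5 libraries.

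Visceral smooth muscle genes divided into those that started near 0 and those already high. Of 20 contractile genes 5 were higher and 0 lower, beside 6.7% and 6.52% of all genes tested, with a median log2 fold change of 1.17. In 17 of the 20 the ages did not overlap, beside 48.8% of all genes tested, in either direction. Myh11, the smooth muscle myosin heavy chain, had 1681 and 2197 normalized counts at E13.5 and 38.8 and 30.5 at E10.5, a log2 fold change of 5.79 ± 0.93 (SE, adjusted p = 0.00014, edgeR). Actg2, the enteric smooth muscle actin, had 1230 and 2011 at E13.5 and 24.4 and 22.2 at E10.5, a log2 fold change of 6.11 ± 1.13 (SE, adjusted p = 0.000613, edgeR). At E11.5 Myh11 was already at 2081 and 2074, within the E13.5 range. Acta2, the actin of vascular and visceral smooth muscle and of early heart muscle, had 8572 and 11189 at E13.5 and 3671 and 5174 at E10.5, a log2 fold change of 1.16 ± 0.38 (SE, adjusted p = 0.0414, edgeR). Tagln, an actin-binding protein of smooth muscle, had 2358 and 2301 at E13.5 and 844 and 1113 at E10.5 and did not pass the test (adjusted p = 0.19, edgeR). Heart muscle RNA was present in all 4 libraries, summed over 22 genes at 5580 and 8650 CPM at E13.5 and 3970 and 7090 CPM at E10.5, and its part in the genes that smooth and heart muscle share was not tested. The Acta2 call was lost without any 1 of the 4 libraries (log2 fold change 0.93 to 1.43, adjusted p = 0.0671 to 0.289, edgeR).

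Cartilage genes went in both directions. Of 32, 5 were higher and 5 lower, with a median log2 fold change of 0.19. Sox9, the transcription factor that sets up cartilage, had 214 and 262 normalized counts at E13.5 and 632 and 755 at E10.5, and Col2a1, the main collagen of cartilage, had 543 and 477 at E13.5 and 2010 and 3880 at E10.5. Both were lower in each E13.5 library than in either E10.5 library, with log2 fold changes of -1.55 ± 0.50 (SE, adjusted p = 0.0389, edgeR) and -2.53 ± 0.77 (SE, adjusted p = 0.0293, edgeR). Neural tube genes summed to 156 and 86.6 CPM at E10.5 and 15.6 and 13.0 CPM at E13.5. Arch and head mesenchyme genes summed to 498 and 597 CPM at E10.5 and 209 and 192 CPM at E13.5. The part of such tissue in Sox9 and Col2a1 was not tested. The study reports a rise of both in the trachea between E13.5 and E15.5, a later step. Fmod, fibromodulin, a collagen-binding proteoglycan also made by tendon, had 615 and 951 at E13.5 and 95.2 and 67.6 at E10.5, a log2 fold change of 3.26 ± 0.52. Matn4, a matrilin, had 218 and 245 at E13.5 and 13.7 and 13.9 at E10.5, a log2 fold change of 4.06 ± 0.83. Acan, the proteoglycan of differentiated cartilage, was at 38.3 and 22.3 at E13.5 and 6.09 and 15.7 at E10.5 and did not pass the test. The cartilage counts rested on all 4 libraries: the lower count was 0 without E13.5 library 1, 1 without E13.5 library 2, 2 without E10.5 library 1 and 1 without E10.5 library 2, and the higher count was 3, 3, 2 and 3 in the same order. Without both libraries numbered 1 they were 0 and 1. Sox9 lost its call without any 1 of the 4 libraries (adjusted p = 0.0864 to 0.221, edgeR), and Col2a1 lost it without either E13.5 library or E10.5 library 2 (adjusted p = 0.14 to 0.21, edgeR).

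**Figure D2:**
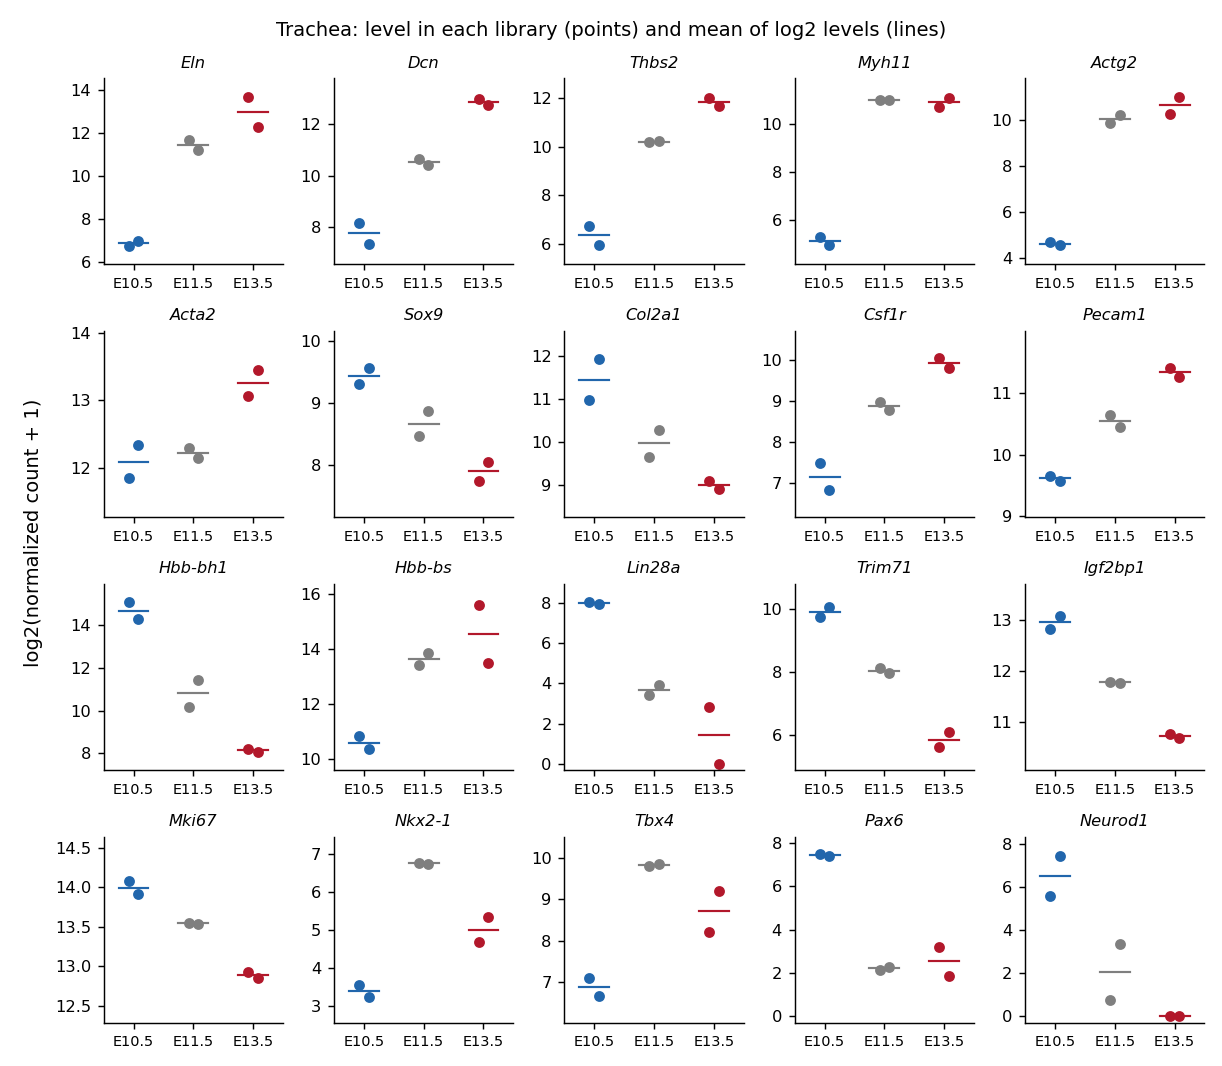
Level of 20 genes as log2 of the normalized count plus 1 (vertical axis) at E10.5, E11.5 and E13.5 (horizontal axis), with 1 point per trachea library and a line at the mean of the log2 levels. Eln was at 13230 and 5003 at E13.5 and at 105.1 and 125.9 at E10.5, and Sox9 at 214 and 262 at E13.5 and at 632 and 755 at E10.5.

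Globin genes changed in both directions. Primitive red cells carry the embryonic chains encoded by Hba-x, Hbb-bh1 and Hbb-y, and red cells made later in the fetal liver carry the adult chains. Hbb-bh1 had 291 and 267 normalized counts at E13.5 and 34290 and 19768 at E10.5. Every E13.5 value was far below every E10.5 value, and the log2 fold change was -6.60 ± 0.59 (SE, adjusted p = 2.53e-07, edgeR). Hba-x had 2941 and 2238 at E13.5 and 38454 and 21697 at E10.5, a log2 fold change of -3.54 ± 0.53 (SE, adjusted p = 6.57e-05, edgeR). Hbb-y had 26503 and 21125 at E13.5 and 81823 and 47200 at E10.5, and its log2 fold change of -1.44 ± 0.52 did not pass the test (adjusted p = 0.0712, edgeR). Hbb-bs, an adult beta chain, had 49208 and 11406 at E13.5 and 1799 and 1304 at E10.5, a log2 fold change of 4.29 ± 0.72 (SE, adjusted p = 0.000219, edgeR). Hbb-bt, the other adult beta chain, rose by 4.32 ± 0.70 on the log2 scale. The adult alpha chain gene Hba-a1 had 49088 and 13694 at E13.5 and 23333 and 12809 at E10.5, so the ages overlapped for it. Adult globin genes are near-identical pairs between which reads can be shared, so their separate values are uncertain. The called globins were the same number, 2 lower and 2 higher, with any library left out.

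The promoters of 5 of these genes are shown to set adult beside embryonic globin genes: Hbb-bs and Hbb-bt rose, Hba-x fell, and Hbb-y and Hba-a1 did not pass the test. The sequences are the 100 bases before the RefSeq start in GRCm38.p6, with matches to 3 motifs on either strand in capitals. The motifs were CACCC (read as GGGTG on the opposite strand), CCAAT (read as ATTGG) and TATAA (read as TTATA). The adult genes are Hbb-bs (chr7:103827929-103828028, minus strand), Hbb-bt (chr7:103813924-103814023, minus strand) and Hba-a1 (chr11:32283572-32283671, plus strand), and the embryonic genes are Hbb-y (chr7:103853208-103853307, minus strand) and Hba-x (chr11:32276500-32276599, plus strand).
Hbb-bs: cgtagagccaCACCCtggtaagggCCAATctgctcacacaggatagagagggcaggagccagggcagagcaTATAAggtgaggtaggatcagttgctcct
Hbb-bt: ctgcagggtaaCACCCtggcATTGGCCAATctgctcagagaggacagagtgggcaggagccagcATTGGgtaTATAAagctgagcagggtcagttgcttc
Hba-a1: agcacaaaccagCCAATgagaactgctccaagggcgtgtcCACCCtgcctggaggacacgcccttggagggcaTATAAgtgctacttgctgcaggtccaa
Hbb-y: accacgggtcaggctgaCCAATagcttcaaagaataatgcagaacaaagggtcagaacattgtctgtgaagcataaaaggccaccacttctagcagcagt
Hba-x: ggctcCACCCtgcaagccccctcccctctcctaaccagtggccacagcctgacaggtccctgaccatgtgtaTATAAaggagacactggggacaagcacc
The 3 adult promoters held all 3 motifs, as 0.472% of 32851 promoters of this length did, and the embryonic pair did not. Hba-a1 was among the 3 although it was not called between the ages (adjusted p = 0.536, edgeR), so the motif set did not go with a rise in each gene that held it. Single motifs were common, CACCC in 27.2%, CCAAT in 18.9% and TATAA in 10.2% of promoters. In Hbb-bt a CCAAT match and an ATTGG match lie side by side. These matches describe letters and not binding.

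Macrophage genes rose in 18 of 20 cases and fell in 0, with a median log2 fold change of 2.72. Csf1r, the receptor that macrophages need for survival, had 1044 and 884 normalized counts at E13.5 and 179 and 114 at E10.5, a log2 fold change of 2.72 ± 0.26 (SE, adjusted p = 2.02e-07, edgeR). C1qa, a complement chain made by tissue macrophages, had 431 and 248 at E13.5 and 32.7 and 25.9 at E10.5, a log2 fold change of 3.53 ± 0.32 (SE, adjusted p = 1.08e-07, edgeR). Mrc1, the mannose receptor, and Cx3cr1, the fractalkine receptor, rose by 2.20 ± 0.25 and 2.62 ± 0.29 on the log2 scale. Both E13.5 libraries were above both E10.5 libraries for 19 of the 20 genes. The count stayed between 15 and 18 with any library left out and was 15 without both numbered 1.

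Of 20 genes of other blood cell lineages 9 were higher and 0 lower. Their summed level was 104 and 38.7 CPM at E13.5 and 27.6 and 6.88 CPM at E10.5, so E10.5 library 1 came close to E13.5 library 2, and 8 of the 20 had no count in either E10.5 library. S100a9, a calcium-binding protein of neutrophils, had 241 and 140 normalized counts at E13.5 and 5.33 and 0.925 at E10.5, a log2 fold change of 5.82 ± 0.97 (SE, adjusted p = 0.000223, edgeR). Camp, the neutrophil granule peptide cathelicidin, had 76.0 and 35.4 at E13.5 and 0 in both at E10.5, at least 22-fold higher. Ltf, lactoferrin, a granule and secretory protein, had 223 and 170 at E13.5 and 0 in both at E10.5, at least 77.7-fold higher. Lymphoid RNA was mostly in E13.5 library 1, the library with thymus transcripts: Cd3g, a chain of the T cell receptor complex, had 300 and 2.62 at E13.5 and 0 in both at E10.5. The part of thymus tissue in the lymphoid values was not tested. The immune count was 5 without E13.5 library 1, 10 without E13.5 library 2, 7 without E10.5 library 1, 6 without E10.5 library 2 and 5 without both numbered 1. Cd3g lost its call without E13.5 library 1 and without either E10.5 library (adjusted p = 0.141 to 0.638, edgeR).

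Endothelial genes were higher in 14 of 20 cases and lower in 0, with a median log2 fold change of 1.45. Pecam1, an adhesion molecule of vessel lining, had 2716 and 2455 normalized counts at E13.5 and 810 and 764 at E10.5, a log2 fold change of 1.72 ± 0.23 (SE, adjusted p = 1.64e-05, edgeR). Cdh5, the cadherin of endothelial junctions, rose by 1.17 ± 0.24 on the log2 scale. Kdr, the main VEGF receptor, had 2167 and 1878 at E13.5 and 1611 and 1395 at E10.5, and its log2 fold change of 0.43 ± 0.24 did not pass the test (adjusted p = 0.293, edgeR). The count was 8 without both libraries numbered 1 and 11 to 13 with single libraries left out.

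Most epithelial genes had larger values at E13.5 without passing the test. Of 25 general epithelial genes 4 were higher and 0 lower, beside 6.7% and 6.52% of all genes tested, and the median log2 fold change was 1.22. In 23 both E13.5 libraries were above both E10.5 libraries (48.8% of all genes tested did not overlap, in either direction). Krt19, a keratin of simple epithelia, had 580 and 575 normalized counts at E13.5 and 102 and 142 at E10.5, a log2 fold change of 2.25 ± 0.68 (SE, adjusted p = 0.0279, edgeR). Krt8, another keratin of simple epithelia, had 2270 and 997 at E13.5 and 614 and 594 at E10.5, a log2 fold change of 1.44 ± 0.81 (SE, adjusted p = 0.296, edgeR). Epcam, at 1078 and 947 at E13.5 and 267 and 384 at E10.5, did not pass either (adjusted p = 0.179, edgeR). The epithelial count was 0 without E13.5 library 1, 1 without E13.5 library 2, and 0 with either E10.5 library left out or without both libraries numbered 1. It also depended on the other settings. It was 13 with the 4 libraries alone, 15 with no filter and 9 without 3 libraries rich in olfactory receptor counts. With all 40 libraries or with the trachea libraries alone it was 1. Epcam and Krt8 passed with the 4 libraries alone. The cause of these shifts was not tested. Krt19 was not called without any 1 of the 4 libraries (adjusted p = 0.086 to 0.195, edgeR).

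Genes of the later airway cell types were sparse. Scgb3a2, a secretory protein that marks early airway secretory cells, had 98.6 and 83.8 normalized counts at E13.5 and 1.52 and 0 at E10.5, and the ratio of counts was 112 with an exact interval of 30.6 to 930 that covers counting error only. Of 16 secretory genes 3 were higher and 0 lower, beside 6.7% and 6.52% of all genes tested. Of 12 basal cell genes 3 were higher and 0 lower. Among them Krt5, the basal keratin, had 708 and 70.7 at E13.5 and 73.9 and 26.8 at E10.5, so the ages overlapped through E13.5 library 2. Trp63, the regulator of basal cells, had 464 and 118 at E13.5 and 335 and 431 at E10.5 and did not pass the test. Of 26 genes of ciliated cells 1 was higher and 2 lower, beside 6.7% and 6.52% of all genes tested. Foxj1, the regulator of motile cilia, was at 11.0 and 5.24 at E13.5 and 39.6 and 13.0 at E10.5, and it did not pass the test. The basal count was 1 without E13.5 library 1, 4 without E13.5 library 2, 1 without E10.5 library 1 and 2 without E10.5 library 2. Without both libraries numbered 1 the basal and secretory counts were 1 each and no ciliated cell gene was called. The Scgb3a2 call was lost without any 1 of the 4 libraries (adjusted p = 0.0793 to 0.215, edgeR), and the Krt5 call without E13.5 library 1 or either E10.5 library (adjusted p = 0.104 to 1, edgeR).

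Among 28 respiratory and foregut patterning factors 3 were higher and 2 lower, with a median log2 fold change of -0.19. These counts are near the shares over all genes tested, 6.7% higher and 6.52% lower. Foxa2, an early regulator of foregut endoderm, had 130 and 233 normalized counts at E13.5 and 40.4 and 57.4 at E10.5, a log2 fold change of 1.89 ± 0.54 (SE, adjusted p = 0.0209, edgeR). Osr1, a zinc finger factor of foregut mesoderm, had 570 and 481 at E13.5 and 143 and 193 at E10.5, a log2 fold change of 1.64 ± 0.35 (SE, adjusted p = 0.0022, edgeR). Eya1, a transcriptional cofactor of pharyngeal development, had 326 and 141 at E13.5 and 452 and 922 at E10.5, a log2 fold change of -1.54 ± 0.42 (SE, adjusted p = 0.0145, edgeR). The ages did not overlap for these 3 genes. Tbx4 and Nkx2-1 were both highest at E11.5, Tbx4 at 885 and 919 normalized counts, against 295 and 591 at E13.5 and 135 and 101 at E10.5, and neither passed the test between E13.5 and E10.5 (adjusted p = 0.0878 and 0.41, edgeR). The higher count was 2 without E13.5 library 1, 1 without E13.5 library 2, 0 without E10.5 library 1, 1 without E10.5 library 2 and 0 without both numbered 1, and the lower count was between 1 and 3. Calls were lost for Foxa2 without E13.5 library 2 or either E10.5 library (adjusted p = 0.0855 to 0.204, edgeR), for Eya1 without E13.5 library 2 or E10.5 library 2 (adjusted p = 0.236 and 0.295, edgeR; log2 fold changes of -1.06 and -0.94), and for Osr1 without E10.5 library 1 (adjusted p = 0.0515, edgeR).

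Most transcripts of RNA-binding and chromatin proteins of early embryonic growth were lower at E13.5. The LIN28 proteins block the maturation of let-7 miRNAs, and let-7 in turn represses transcripts that carry sites matching its seed. Of 22 early growth regulators 17 were lower and 0 higher, with a median log2 fold change of -1.46, and in 19 both E13.5 libraries were below both E10.5 libraries. Lin28a had 6.16 and 0 normalized counts at E13.5 and 260 and 242 at E10.5, a log2 fold change of -6.04 ± 1.05 (SE, adjusted p = 0.000323, edgeR). Lin28b had 135 and 40.6 at E13.5 and 1046 and 1400 at E10.5, a log2 fold change of -3.76 ± 0.54 (SE, adjusted p = 4.45e-05, edgeR). Both were far lower in each E13.5 library.

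Genes of proteins that bind growth factor transcripts, and of some chromatin proteins, were also lower. Igf2bp1, which binds and stabilises transcripts such as that of Igf2, had 1722 and 1629 normalized counts at E13.5 and 7230 and 8632 at E10.5, a log2 fold change of -2.24 ± 0.21 (SE, adjusted p = 2.14e-07, edgeR). Trim71, an RNA-binding ubiquitin ligase of early embryos, had 47.9 and 66.8 at E13.5 and 853 and 1061 at E10.5, a log2 fold change of -4.07 ± 0.70 (SE, adjusted p = 0.000313, edgeR). Hmga2, a chromatin protein of growing embryonic tissue, had 1088 and 1143 at E13.5 and 5572 and 4958 at E10.5, a log2 fold change of -2.24 ± 0.38 (SE, adjusted p = 0.000253, edgeR). The E11.5 libraries were between the ages for each, with Trim71 at 275 and 247 and Hmga2 at 2451 and 3363. Dnmt3a, a DNA methyltransferase, had 3474 and 3570 at E13.5 and 3587 and 3735 at E10.5, close in all 4 libraries, with a log2 fold change of -0.06 ± 0.17. The lower count was 9 without E13.5 library 1, 13 without E13.5 library 2, 13 without E10.5 library 1, 14 without E10.5 library 2 and 9 without both numbered 1.

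Sites for the let-7 seed are shown because they recur among the early growth regulators. The mature miRNAs are from RefSeq (GRCm38.p6), with the seed, bases 2 to 8, in capitals, and let-7a and let-7g share it.
mmu-let-7a-5p: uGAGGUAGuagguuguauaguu
mmu-let-7g-5p: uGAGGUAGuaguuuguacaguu
The site searched was CTACCTCA, the complement of the seed followed by A, on the transcript strand of the 3′ UTR of each gene's canonical transcript in the GENCODE annotation of GRCm39. The first site is shown for Lin28a (chr4:133732500-133732521, minus strand), Igf2bp1 (chr11:95852604-95852625, minus strand), Lin28b (chr10:45257118-45257139, minus strand) and Sall4 (chr2:168590860-168590881, minus strand), with the site in capitals.
Lin28a: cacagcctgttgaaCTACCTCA
Igf2bp1: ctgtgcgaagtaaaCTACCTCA
Lin28b: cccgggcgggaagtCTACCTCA
Sall4: gggctttaatttatCTACCTCA
The site was in the 3′ UTR of 10 of the 22 early growth regulators (45.5%) and in 687 of 19710 tested protein-coding genes (3.49%). The list holds genes known for their link to LIN28 and let-7, and its 3′ UTRs were longer, with a median of 1958 bases against 1178, so its share follows from how it was chosen and is only a description. It was in 99 of 1476 lower genes (6.71%), 78 of 2324 higher genes (3.36%) and 510 of 15910 genes not called (3.21%). The 99 lower genes include the 10 early growth regulators with a site. The 3′ UTRs of the lower genes were longer, with a median of 1872 bases against 1271 among the higher genes. Among UTRs of 3000 bases or more the shares were 12.4% of lower, 8.27% of higher and 8.25% of the genes not called. In the same order they were 6.23%, 3.38% and 3.69% for UTRs of 1000 to 3000 bases. Under 1000 bases they were close, at 1.37%, 1.33% and 1.06%. Trim71 held 4 sites and Igf2bp1 held 3, while the annotated canonical transcript of Hmga2 has a 3′ UTR of 37 bases and so no site in this search. A match is a description of letters, and the levels of let-7 were not measured here.

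Of 41 cell cycle genes 5 were lower and 0 higher, beside 6.52% and 6.7% of all genes tested, with a median log2 fold change of -0.34. In 31 both E13.5 libraries were below both E10.5 libraries (48.8% of all genes tested did not overlap, in either direction). Mki67, which marks dividing cells, had 7774 and 7380 normalized counts at E13.5 and 17259 and 15408 at E10.5, a log2 fold change of -1.11 ± 0.30 (SE, adjusted p = 0.0142, edgeR). Cenpf, a kinetochore protein, had 1759 and 1975 at E13.5 and 4618 and 4890 at E10.5, a log2 fold change of -1.35 ± 0.26 (SE, adjusted p = 0.00095, edgeR). Cdk4, a kinase of early cell cycle entry, had 7685 and 8400 at E13.5 and 7371 and 7664 at E10.5 and did not pass the test. The lower count was 2 without E13.5 library 1, 1 without E13.5 library 2, 2 with either E10.5 library left out and 0 without both numbered 1. Mki67 was not called without any 1 of the 4 libraries (adjusted p = 0.05 to 0.118, edgeR).

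Some hedgehog pathway genes were lower. SHH from the lining acts through its receptor PTCH1 and the GLI factors in the mesenchyme, and Ptch1 and Gli1 are themselves targets of the pathway. Of 17 genes 5 were lower and 1 higher, with a median log2 fold change of -0.06. Ptch1 had 858 and 1405 normalized counts at E13.5 and 2079 and 3408 at E10.5, a log2 fold change of -1.28 ± 0.24 (SE, adjusted p = 0.000762, edgeR). Gli1 had 131 and 179 at E13.5 and 259 and 413 at E10.5, a log2 fold change of -1.12 ± 0.34 (SE, adjusted p = 0.0314, edgeR). Gli3, mainly a repressor of the pathway, fell by 1.28 on the log2 scale. Boc, a co-receptor of SHH, was higher with a log2 fold change of 1.05 ± 0.28. The ligand Shh had 37.0 and 102 at E13.5 and 46.5 and 75.0 at E10.5, overlapping between ages. At E11.5 Gli1 was at 494 and 506, above all 4 libraries of the other ages. The lower count was 3 without E13.5 library 1, 2 without E13.5 library 2, 5 without E10.5 library 1, 2 without E10.5 library 2 and 3 without both numbered 1. Gli1 lost its call without either E13.5 library or E10.5 library 2 (adjusted p = 0.0702 to 0.359, edgeR; log2 fold change of -0.74 without the last), and Boc lost it without E13.5 library 1 or E10.5 library 2 (adjusted p = 0.0658 and 0.216, edgeR).

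Of 59 Wnt pathway genes 12 were higher and 13 lower, with a median log2 fold change of 0.06. Sfrp2, a secreted Wnt inhibitor, had 3246 and 2552 normalized counts at E13.5 and 493 and 604 at E10.5, a log2 fold change of 2.4 ± 0.62 (SE, adjusted p = 0.0107, edgeR). Dkk1, another secreted inhibitor, had 13.0 and 3.93 at E13.5 and 160 and 139 at E10.5, a log2 fold change of -4.04 ± 0.95 (SE, adjusted p = 0.00523, edgeR). Fzd3, a Wnt receptor, had 1446 and 1532 at E13.5 and 4647 and 4520 at E10.5, a log2 fold change of -1.62 ± 0.28. The ligand Wnt3 had 5.48 and 0 at E13.5 and 99.0 and 38.9 at E10.5. The higher count was 5 without E13.5 library 1, 10 without E13.5 library 2, 8 without E10.5 library 1 and 5 without E10.5 library 2, and the lower count was 9, 4, 7 and 10 in the same order. Without both libraries numbered 1 the counts were 3 higher and 4 lower. Sfrp2 was not called without E13.5 library 1 or either E10.5 library (adjusted p = 0.0591 to 0.106, edgeR), Dkk1 without E13.5 library 2 (adjusted p = 0.0846, edgeR) and Wnt3 without E13.5 library 2 or E10.5 library 1 (adjusted p = 0.0614 and 0.0506, edgeR).

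BMP and TGF-beta genes were more often higher, 13 of 47, than lower, 3, with a median log2 fold change of 0.50. Tgfb3, a ligand, had 1216 and 1214 normalized counts at E13.5 and 286 and 163 at E10.5, a log2 fold change of 2.43 ± 0.29 (SE, adjusted p = 4.39e-06, edgeR). Fstl1, a secreted antagonist of BMP signals required for tracheal cartilage in mice, had 18733 and 18151 at E13.5 and 5582 and 5657 at E10.5, a log2 fold change of 1.71 ± 0.25 (SE, adjusted p = 4.83e-05, edgeR). Bmp4, the ligand of the ventral foregut mesenchyme, had 372 and 352 at E13.5 and 455 and 344 at E10.5, and the ages overlapped. The higher count was 7 without E10.5 library 1, 9 to 11 without any other single library, and 6 without both numbered 1, where the lower count was 1.

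FGF genes gave 9 higher and 4 lower of 43, beside 6.7% and 6.52% of all genes tested, with a median log2 fold change of -0.04. Flrt2, a membrane protein of the FLRT family, had 5211 and 5257 normalized counts at E13.5 and 2401 and 2246 at E10.5, a log2 fold change of 1.17 ± 0.21. Fgf10, the mesenchymal ligand of lung budding, had 107 and 98.2 at E13.5 and 101 and 137 at E10.5, overlapping between ages. Fgf8, a ligand of the pharyngeal arches, had 0 in both libraries at E13.5 and 13.0 and 11.1 at E10.5, at least 4.02-fold lower. The higher count was 8 without E13.5 library 1, 9 without E13.5 library 2 and 5 with either E10.5 library left out, and the lower count was at most 1 with any library left out. Without both libraries numbered 1 the counts were 4 higher and 0 lower. Fgf8 was not called without any 1 of the 4 libraries (adjusted p = 0.0967 to 0.198, edgeR), nor by DESeq2 or with the replicate number as a block.

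Retinoic acid genes gave 6 higher and 3 lower of 20, with a median log2 fold change of 0.49. Aldh1a2, the main enzyme of retinoic acid synthesis in embryonic mesoderm, had 925 and 1249 normalized counts at E13.5 and 364 and 282 at E10.5, a log2 fold change of 1.75 ± 0.41 (SE, adjusted p = 0.00483, edgeR). Cyp26b1, which breaks retinoic acid down, had 153 and 143 at E13.5 and 589 and 621 at E10.5, a log2 fold change of -2.03 ± 0.51 (SE, adjusted p = 0.00794, edgeR). The synthesis enzyme was thus higher and the degrading enzyme lower, with no overlap between ages. The higher count was 6 without E13.5 library 1, 4 without E13.5 library 2, 6 without E10.5 library 1 and 3 without E10.5 library 2, and the lower count was 1, 1, 2 and 3 in the same order. Without both libraries numbered 1 they were 4 and 1. The Aldh1a2 call was lost without E13.5 library 2 or E10.5 library 2 (adjusted p = 0.0534 and 0.0821, edgeR), and the Cyp26b1 call without either E13.5 library (adjusted p = 0.0645 and 0.0804, edgeR).

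Notch genes gave 3 higher and 4 lower of 25, beside 6.7% and 6.52% of all genes tested. Heyl, a Notch target of vessel walls, had 797 and 458 normalized counts at E13.5 and 87.6 and 153 at E10.5, a log2 fold change of 2.39 ± 0.39 (SE, adjusted p = 0.000153, edgeR). Hes5, a Notch target of neural progenitors, had 5.48 and 2.62 at E13.5 and 124 and 106 at E10.5, a log2 fold change of -4.70 ± 1.04 (SE, adjusted p = 0.00319, edgeR). The lower count was 4 without E13.5 library 1, 0 without E13.5 library 2, 1 without E10.5 library 1 and 2 without E10.5 library 2, and the higher count was 1, 4, 2 and 1 in the same order. Without both libraries numbered 1 the counts were 0 higher and 1 lower. Hes5 lost its call without E13.5 library 2 (adjusted p = 0.053, edgeR).

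**Figure D3:**
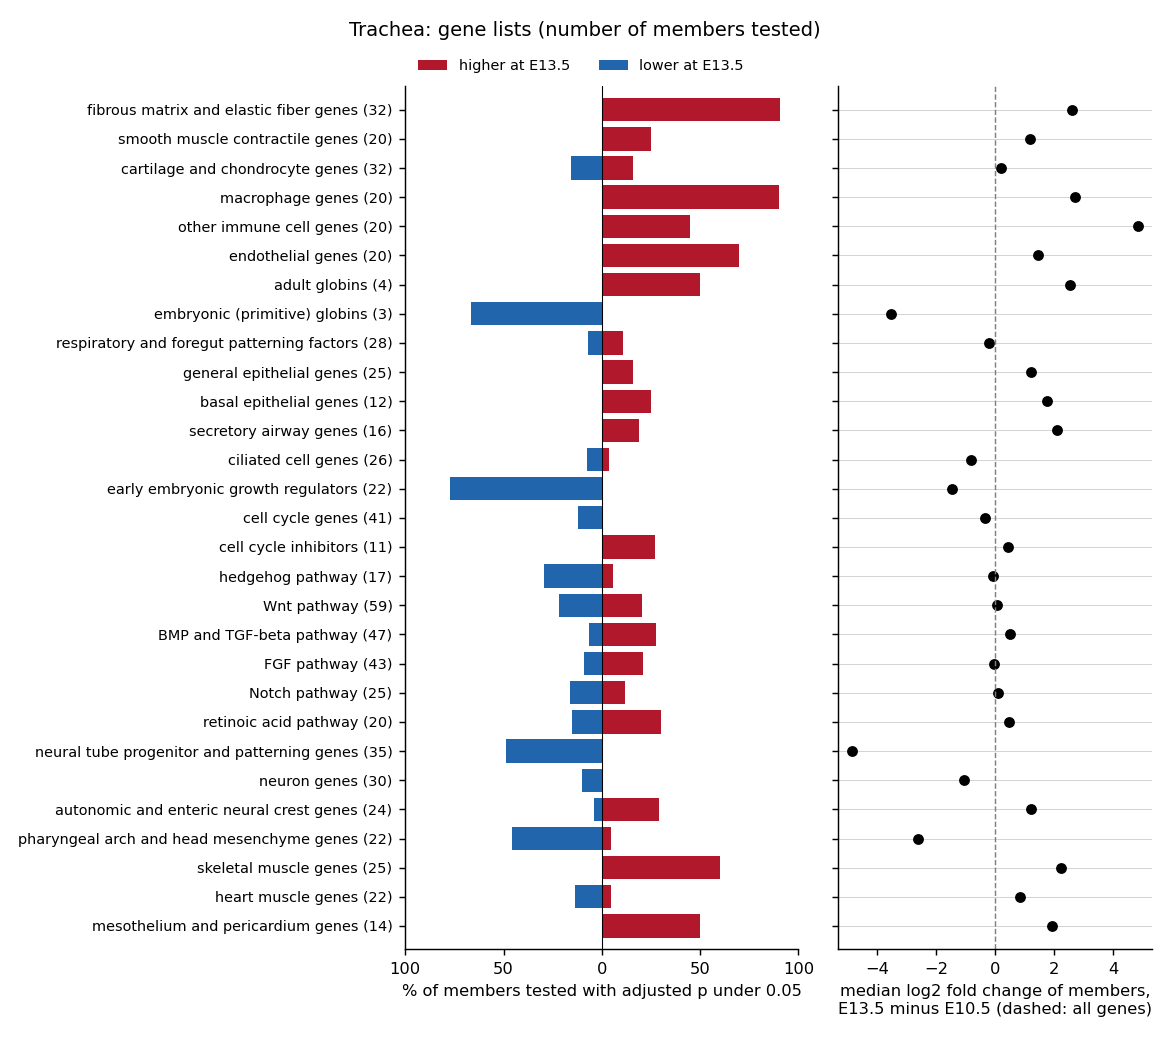
Gene lists down the page, with the number of members tested in brackets. Bars on the left give the percent of members higher (red) and lower (blue) at E13.5 at an adjusted p under 0.05, and points on the right the median log2 fold change, E13.5 minus E10.5. Fibrous matrix genes have a median of 2.61, macrophage genes of 2.72 and early growth regulators of -1.46, beside 0.00 over all genes tested.

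Neural tube transcripts were low at E13.5. Of 35 genes of neural tube progenitors and patterning 17 were lower and 0 higher, in 31 both E13.5 libraries were below both E10.5 libraries, and the median log2 fold change was -4.84, or -3.07 with genes at 0 set to their bound. Their summed level was 15.6 and 13.0 CPM at E13.5 and 156 and 86.6 CPM at E10.5. Pax6, a regulator of neural progenitors, had 8.21 and 2.62 normalized counts at E13.5 and 178 and 166 at E10.5, a log2 fold change of -4.84 ± 1.14 (SE, adjusted p = 0.00544, edgeR). Atoh1, a hindbrain proneural factor, had 0 in both at E13.5 and 34.3 and 19.4 at E10.5, at least 8.98-fold lower. The count rested on every library: 5 without E13.5 library 1, 2 without E13.5 library 2, 5 without E10.5 library 1, 11 without E10.5 library 2 and 1 without both numbered 1. Pax6 lost its call without E13.5 library 2 (adjusted p = 0.0776, edgeR).

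Neurod1 and Pou3f2 were among the 10 largest falls of protein-coding genes. Neurod1, a factor of neuronal differentiation, had 0 in both libraries at E13.5 and 47.2 and 172 normalized counts at E10.5, at least 36.7-fold lower. Pou3f2, a neural POU factor, had 4.11 and 2.62 at E13.5 and 519 and 413 at E10.5, a log2 fold change of -6.99 ± 1.47 (SE, adjusted p = 0.0021, edgeR). Of 30 genes shared by all neurons 3 were lower, 0 were higher and 27 did not pass the test, beside 6.52% of all genes lower, and their median log2 fold change was -1.05. Tubb3, the neuronal tubulin, had 695 and 384 at E13.5 and 2169 and 1873 at E10.5 and did not pass the test (adjusted p = 0.281, edgeR). The part in these values of neural tissue cut along with the E10.5 trachea was not tested. The neuron count was 1 without E13.5 library 1, 0 without E13.5 library 2, 3 without E10.5 library 1, 2 without E10.5 library 2 and 0 without both numbered 1. Neurod1 lost its call without either E13.5 library or E10.5 library 2 (adjusted p = 0.0511 to 0.0898, edgeR).

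Autonomic and enteric neural crest is the source of the nerves and glia of the airway wall. Of 24 of its genes 7 were higher and 1 lower, with a median log2 fold change of 1.21. Ednrb, the endothelin receptor of migrating crest cells, had 2439 and 3182 normalized counts at E13.5 and 891 and 850 at E10.5, a log2 fold change of 1.69 ± 0.25 (SE, adjusted p = 5.63e-05, edgeR). The count was 5 to 7 with any library left out and 2 without both numbered 1.

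Genes of pharyngeal arch and head mesenchyme were lower in 10 of 22 cases and higher in 1, with a median log2 fold change of -2.62. Twist1, a mesenchymal factor, had 149 and 60.2 normalized counts at E13.5 and 586 and 615 at E10.5, a log2 fold change of -2.50 ± 0.39 (SE, adjusted p = 0.000121, edgeR). Alx4, a homeobox factor of craniofacial mesenchyme, had 63.7 and 65.5 at E13.5 and 618 and 570 at E10.5, a log2 fold change of -3.20 ± 0.55 (SE, adjusted p = 0.000305, edgeR). In 21 of the 22 genes both E13.5 libraries were below both E10.5 libraries. The count stayed between 7 and 10 with single libraries left out and was 5 without both numbered 1.

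Genes of skeletal muscle and of mesothelium and pericardium also changed, and the tissue their RNA came from was not tested. Of 25 skeletal muscle genes 15 were higher and 0 lower, with a summed level of 944 and 498 CPM at E13.5 and 213 and 292 CPM at E10.5. Myh3, the embryonic myosin heavy chain, had 4573 and 1783 normalized counts at E13.5 and 273 and 28.7 at E10.5, a log2 fold change of 4.39 ± 0.84 (SE, adjusted p = 0.000895, edgeR). Of 14 genes of mesothelium and pericardium 7 were higher and 0 lower, among them Upk3b, a mesothelial surface protein, at 1676 and 2159 at E13.5 and 385 and 330 at E10.5. The skeletal muscle count was 8 without E13.5 library 1 and 7 without E10.5 library 2 or without both numbered 1, and the mesothelial count was 3 without E13.5 library 2, 4 without E10.5 library 1 and 2 without E10.5 library 2 or without both numbered 1. Upk3b lost its call without E10.5 library 2 (adjusted p = 0.0536, edgeR).

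Heart muscle genes did not share a direction. Of 22, 1 was higher and 3 lower, beside 6.7% and 6.52% of all genes tested. The median log2 fold change was 0.86. In 12 of the 22 both E13.5 libraries were above both E10.5 libraries, and in 4 they were below (48.8% of all genes tested did not overlap, in either direction). In a fit of the 4 libraries alone 11 were higher and 3 lower. Myh7, the ventricular myosin heavy chain of the embryo, had 2844 and 2654 normalized counts at E13.5 and 17271 and 34266 at E10.5, a log2 fold change of -3.23 ± 0.68 (SE, adjusted p = 0.00201, edgeR), and Myl2, the ventricular light chain, fell by 4.39 on the log2 scale. The atrial chain Myh6 had 23561 and 34813 at E13.5 and 7797 and 14069 at E10.5 and did not pass the test (adjusted p = 0.443, edgeR). These 3 genes do not stand for the 22. The heart marker Myl7 was at 735 and 1220 CPM at E13.5 and at 165 and 263 CPM at E10.5. Nppa was at 154 and 320 CPM at E13.5 and at 72.5 and 126 CPM at E10.5. Tnnt2 was at 293 and 546 CPM at E13.5 and at 121 and 206 CPM at E10.5. The lower count was 2 with any library left out and 1 without both numbered 1.

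**Figure D4:**
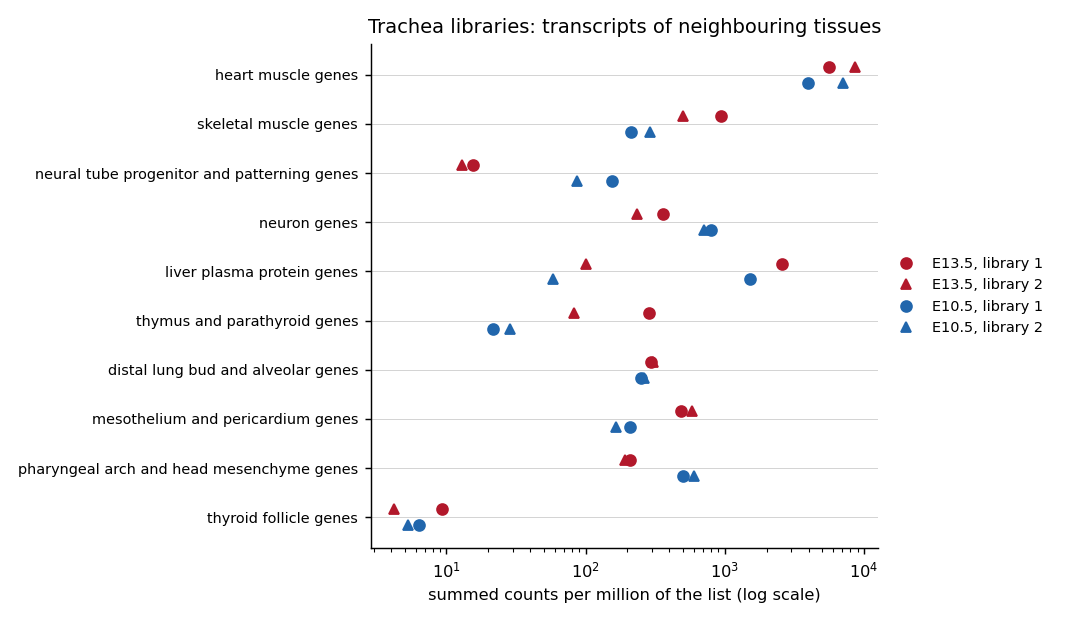
Summed level in CPM (log scale, horizontal axis) of marker lists of neighbouring tissues (vertical axis), with 1 point per trachea library, E13.5 in red above E10.5 in blue. Neural tube genes summed to 15.6 and 13.0 CPM at E13.5 and to 156 and 86.6 CPM at E10.5, and liver genes to 2590 and 101 CPM at E13.5 and to 1520 and 58.7 CPM at E10.5.

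The change of the trachea was set against the change of the esophagus and of the larynx over the same ages, by testing the difference between the 2 changes in the same model. Between trachea and esophagus 1 of 35650 genes (0.00281%) differed at an adjusted p under 0.05, while 1023 did at an unadjusted p under 0.05, and DESeq2 called 13. That gene was Myh7, whose change in the trachea minus that in the esophagus was -6.25 on the log2 scale (adjusted p = 0.0351, edgeR's quasi-likelihood test). It had 2844 and 2654 normalized counts in the E13.5 trachea and 1577 and 4776 in the E13.5 esophagus, and 17271 and 34266 in the E10.5 trachea and 327 and 457 in the E10.5 esophagus. The call was kept without E10.5 library 1 of the trachea and without E13.5 library 1 of the esophagus, and was lost without any 1 of the other 6 libraries of these 2 organs and ages. A p that misses the threshold does not show that the organs changed alike.

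Between trachea and larynx 300 genes (0.842%) differed, 9 (0.0252%) with a higher change in the trachea and 291 (0.816%) with a lower one. Heart muscle genes accounted for 19 of them, out of 22 on the list. Myh6 had 23561 and 34813 normalized counts in the E13.5 trachea and 61560 and 108077 in the E13.5 larynx, and 7797 and 14069 in the E10.5 trachea and 4.25 and 1.496 in the E10.5 larynx, so the larynx at E10.5 all but lacked heart transcripts that the trachea then held. Aldh1a3, an enzyme of retinoic acid synthesis, differed the other way, by 5.22 on the log2 scale (adjusted p = 0.000293, edgeR). It had 157 and 45.8 in the E13.5 trachea and 80.6 and 47.8 in the E13.5 larynx, and 9.90 and 14.8 in the E10.5 trachea and 335 and 244 in the E10.5 larynx. For Aldh1a2 the change in the trachea minus that in the larynx was -3.14 (adjusted p = 0.00523, edgeR). The count was 153 without E13.5 library 1 of the trachea, 192 without its E13.5 library 2, 164 without its E10.5 library 2, 151 without E13.5 library 2 of the larynx and 114 without E10.5 library 1 of the larynx.

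List medians are given for the 3 organs side by side. Fibrous matrix genes had a median log2 fold change of 2.61 in the trachea, 2.68 in the esophagus and 3.16 in the larynx, and 1 of the 32 differed between trachea and larynx. Macrophage genes had medians of 2.72, 2.90 and 2.36 in the same order, and early growth regulators -1.46, -1.44 and -1.44, with 0 members of either list differing between organs. Over all genes only 0.00281% differed between trachea and esophagus and 0.842% between trachea and larynx, so a count of 0 in lists this short says nothing of likeness. Smooth muscle genes had medians of 1.17, 2.17 and 2.66, and 5 of the 20 differed between trachea and larynx. Among these was Acta2, whose change in the trachea minus that in the larynx was -5.27 (adjusted p = 2.17e-05, edgeR). Acta2 was at 251 and 353 CPM in the E10.5 trachea and at 7.65 and 11.6 CPM in the E10.5 larynx, which all but lacked heart transcripts. The part of heart muscle RNA in the smooth muscle differences between organs was not tested.

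**Figure D5:**
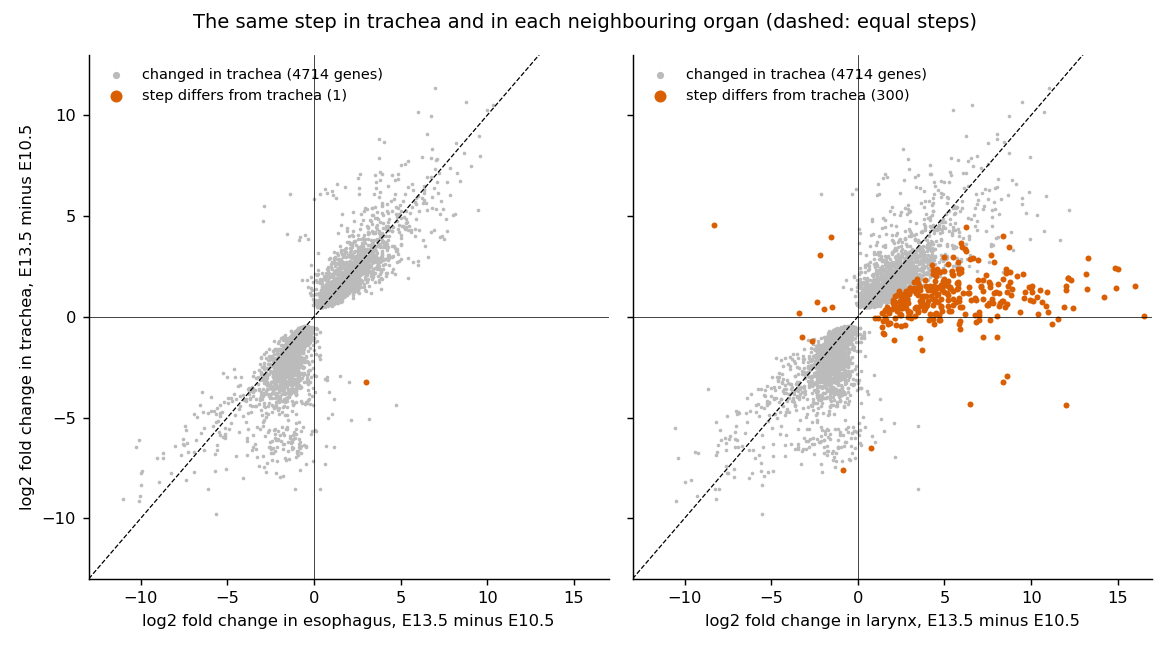
Log2 fold change of the trachea, E13.5 minus E10.5 (vertical axis), against that of the esophagus (left) and of the larynx (right), 1 grey point for each of the 4714 genes changed in the trachea. Orange points are genes whose change differed between the organs at an adjusted p under 0.05, 1 for the esophagus and 300 for the larynx, and 291 of those 300 lie below the dashed line of equal change.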

How the data were processed

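RNA was sequenced from 2 pooled libraries of trachea at E13.5 and 2 at E10.5. According to the processing notes the authors used FastQC, Bowtie2 2.4.2 and RSEM 1.3.3 on the GRCm39 build, and the deposited table holds RSEM expected counts per gene. RSEM splits reads among similar genes, so values of near-identical copies are uncertain, and the strand setting of the counting is not stated, so overlapping antisense genes cannot be told apart. Expected counts were rounded. The 35650 genes that reached 1 normalized count in 2 or more of the 30 short-code libraries (3 organs, 5 ages, 2 libraries each) were fitted in edgeR 4.0.16 (R 4.3.3) with median-ratio factors and 1 mean per organ and age, so that all groups share the spread, and p-values were adjusted by Benjamini-Hochberg over all genes. The 10 index libraries were left out of this fit. DESeq2 1.42.0 was an alternative. Normalized counts are counts divided by the median-ratio factor and CPM is counts scaled to a common library total, and neither is per length, so levels are not compared between genes.

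Genes were named by rule: the 10 largest rises and falls among protein-coding genes whose ages did not overlap, with an average of 50 or more normalized counts at the higher age, the most abundant and most changed members of each list, tissue markers, the largest differences between organs, and genes the study names. Not all of them are described. Gene lists and members were chosen with earlier results of these data known. Values marked ± are standard errors, worked back as the size of the log2 fold change divided by the square root of the quasi-likelihood F. The log2 fold changes use a prior count of 0.125, on which values of genes near 0 depend. With 2 libraries an age an exact test cannot go below a p of 0.333, so calls rest on the shared spread. Library totals ran from 12883607 to 23210925 counts in the 4 libraries, and intervals on ratios of few counts are exact at 95% and cover counting error only.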

Additional observations from a re-analysis of the deposited data

Results flagged for a closer look

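Changes that differed between organs by the test of the difference itself are listed as values of the trachea change minus that of the other organ, on the log2 scale. Against the esophagus the value for Myh7 was -6.25. Against the larynx the values of the heart muscle genes were -13.47 for Myh6, -11.59 for Myh7 and -16.39 for Myl2, and that of Upk3b was -12.43, all in a comparison where the larynx at E10.5 held almost no heart transcripts. These fitted values depend on genes at or near 0 in the E10.5 larynx and are not bounds. Values against the larynx were also -5.27 for Acta2, -3.14 for Aldh1a2, -1.74 for Bmp4 and 5.22 for Aldh1a3. The part of tissue cut along with each organ in these differences was not tested.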

How the results depend on the processing

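With other settings the count of genes changed in the trachea, 4714, was 7233 with the 4 libraries alone, 2903 with all 40 libraries, 2472 at the stricter threshold of 0.01 and 2165 to 2808 with each library left out in turn, while TMM factors gave 4560, DESeq2 6727 and other filters 5752 to 5883. Leaving out both trachea libraries numbered 1, chosen after seeing the data, gave 1482. The 2 age groups share only a replicate number: the difference between libraries 1 and 2 at E13.5 correlated with that at E10.5 at 0.234 over 16847 genes, with 2 pairs, and with the replicate block 4078 genes were called, 3986 of them also called without it. For trachea against esophagus, with 1 gene, the counts were 13 by DESeq2, 404 with no filter, 2 with the replicate block, 0 to 2 with a library left out, and 0 with filterByExpr, with the filter on the 4 libraries, with all 40 libraries, without 3 libraries rich in olfactory receptor counts, without both libraries numbered 1 and at the stricter threshold of 0.01. For trachea against larynx, with 300 genes, the counts were 582 by DESeq2, 1046 with no filter, 174 with all 40 libraries, 125 without both libraries numbered 1, 159 at the stricter threshold of 0.01, 329 with the replicate block and 114 to 285 with a library left out. The cause of these shifts was not tested. Fits on the 4 libraries alone and on the trachea libraries alone give no value for a difference between organs. With 1 library left in an age, that library is assumed to vary like the other groups. Some named genes that were not called passed in other fits. They were 9 of 24 with the 4 libraries alone and 13 of 25 with no filter. Of 25, 3 passed with the trachea libraries alone, 2 by DESeq2, and 0 with TMM factors, the replicate block or all 40 libraries. Of 71 named genes called, 12 to 17 lost the call with a library left out, 28 without both libraries numbered 1, 16 with all 40 libraries, 14 at 0.01, 7 with the trachea libraries alone, 2 with the replicate block and 0 or 1 with the 4 libraries alone, DESeq2, TMM factors or other filters.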
